A study of Mus musculus with 58 samples.

Results

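The 10 genes described here encode the heat shock chaperones of the cytosol and of the mitochondrial matrix: Hspa8, Hsp90aa1, Hsp90ab1, Hspa1a, Hspa1b, Hsph1, Dnaja1, Dnajb1, Hspd1 and Hspe1. They were chosen by symbol, and all 10 were found among the 55376 genes of the count files. The choice was made with RNA values of these same libraries in view, so their RNA levels and fold changes are given as a description with no p-value. The lists of other genes set beside them were also chosen with earlier results of these data known. Their adjusted p-values are over all genes and do not allow for that choice, so they are no independent support. RNA came from hematopoietic stem cells (HSCs) of male C57BL/6 mice, which for the 6 diet groups were gated as CD150+ CD34- Flk2- cells within the living Lin- c-Kit+ Sca-1+ fraction. Old mice (24 to 26 months) were fed ad libitum for life (OAL, 4 libraries), kept on lifelong 40% caloric restriction (CR; OCR, 4 libraries), or given food freely for 4 weeks after lifelong CR (OCRRF, 2 libraries). Young mice (3 to 4 months) were fed ad libitum (YAL), restricted by 20% in a first week and by 40% for the rest of a short-term course (YCR), or refed for 4 weeks after it (YCRRF), with 4 libraries each. A further 12 libraries came from aged HSCs transduced with lentivirus and transplanted into lethally irradiated young female recipients, from which donor LSK CD48- CD150+ cells were sorted again. They carried a GFP vector with a Kdr shRNA (4 libraries) or its scramble (2 libraries), or a GFP Kdr shRNA together with an mCherry Bmpr1a shRNA (shRNA1 or shRNA2, 2 libraries each) or both scrambles (2 libraries). Each knockdown therefore rests on 1 Kdr shRNA, and every knockdown and scramble library had also passed through culture, infection and transplantation. The labels do not say whether numbered libraries came from separate mice, so p-values measure the spread between these libraries only.

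The diet libraries held 11102898 to 36579392 counts and the transplanted ones 35657999 to 44780217. The old libraries had more genes with a count (42071 to 46646) than the young (22209 to 33496) or the transplanted ones (23453 to 25447). They also gave more counts to olfactory and vomeronasal receptor genes, which HSCs are not known to use, at 553 to 1553 CPM (counts scaled to a common library total) against 69.2 to 499 in the young. The summed level of 6 HSC markers (Procr, Slamf1, Kit, Ly6a, Mecom and Hlf) was 2060 to 3402 CPM over all libraries, and 5 T-cell markers never summed above 10.9 CPM. Markers of neutrophils and monocytes summed to 15.9 to 105 CPM in the old libraries, to 21.6 to 1410 CPM in the young and to 231 to 3602 CPM in the transplanted ones. Levels below are CPM on library sizes scaled by TMM, with factors computed separately for the diet and the transplanted libraries. In these bulk samples fewer cells of a type and less RNA per cell cannot be told apart.

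Heat shock proteins of the HSP70 class bind unfolded stretches of other proteins and release them in cycles of ATP hydrolysis. J-domain proteins of the DNAJ family bring substrates to HSP70 and start its hydrolysis, and HSP110 proteins such as Hsph1 exchange the nucleotide that ends the cycle. HSP90 takes partly folded clients, among them many kinases and steroid receptors, from HSP70, and in the mitochondrial matrix Hspd1 (HSP60) with its lid Hspe1 (HSP10) encloses proteins to fold them. The transcription factor HSF1 drives these genes under stress by binding heat shock elements, which are inverted repeats of the unit GAA.

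The promoters show how that element is spread over the members. RefSeq promoter windows of GRCm38.p6 (250 bases before to 50 after a start site) were at hand for 7 members with 12 windows between them, and none was available here for Hspa8, Hsp90aa1 and Hsp90ab1. A pair of inverted units, GAANNTTC or TTCNNGAA on either strand, stood in 6 of the 7 members (all but Dnajb1), against 15.1% of 32851 promoters of the same length. A run of 3 units, in which GAANNTTC is followed by NNGAA or TTCNNGAA by NNTTC, stood in Hspd1, Hspe1 and Hsph1, against 0.603% of all promoters, and it contains the pair. A member was counted if any of its windows matched, and Hspd1 and Dnaja1 also had windows without a match. The shares of all promoters are of single windows, so members and shares are not in like units. Hspd1 and Hspe1 share their element, and the windows of Hspa1a and Hspa1b are near copies, so these matches are not separate. All are matches of letters in a window and were not tested for binding.

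The inducible pair Hspa1a and Hspa1b lie on the minus strand of chromosome 17, with start sites 12918 bases apart, and their promoters differ at 4 of 300 bases. They are shown because promoters this alike bear on the chromatin readouts of the pair, described further on. For the RNA counts the likeness of the transcripts matters, which is also given further on. The 150 bases before the start site of Hspa1a (chr17:34972157-34972306) and of Hspa1b (chr17:34959239-34959388) read as follows on the minus strand, with the pair of units in capitals, and 1 of the differing bases falls in this stretch.

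Hspa1a: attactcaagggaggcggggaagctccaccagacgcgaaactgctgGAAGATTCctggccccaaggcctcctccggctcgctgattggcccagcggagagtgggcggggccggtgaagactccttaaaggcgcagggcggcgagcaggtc

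Hspa1b: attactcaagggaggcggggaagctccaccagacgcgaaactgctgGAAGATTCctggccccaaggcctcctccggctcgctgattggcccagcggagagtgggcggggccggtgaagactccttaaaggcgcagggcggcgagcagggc

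Hspd1 and Hspe1 lie head to head on chromosome 1, with 215 bases between the start site of Hspe1 and one of 2 RefSeq start sites of Hspd1, so that 1 element lies in the windows of both genes. It is shown on the strand of Hspe1 (chr1:55087998-55088147, plus strand), with the repeated units in capitals, and again as the 18 bases that face Hspd1 (chr1:55088059-55088076, minus strand).

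Hspe1: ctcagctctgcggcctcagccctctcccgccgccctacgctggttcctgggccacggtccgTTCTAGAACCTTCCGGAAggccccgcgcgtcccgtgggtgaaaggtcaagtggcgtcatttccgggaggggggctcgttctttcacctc

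Hspd1 element: TTCCGGAAGGTTCTAGAA

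Hsph1 (chr5:149636337-149636486, minus strand) and Dnaja1 (chr4:40722318-40722467, plus strand) are shown because PU.1 peaks, described further on, overlap these stretches. Capitals mark the pair of units in each, and in Hsph1 the run of 3 units lies past the start site (chr5:149636288-149636300).

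Hsph1: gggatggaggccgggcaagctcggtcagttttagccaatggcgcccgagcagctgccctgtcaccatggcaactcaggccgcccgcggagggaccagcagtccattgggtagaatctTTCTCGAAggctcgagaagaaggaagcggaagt

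Hsph1 element: TTCTGGAAAGTTC

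Dnaja1: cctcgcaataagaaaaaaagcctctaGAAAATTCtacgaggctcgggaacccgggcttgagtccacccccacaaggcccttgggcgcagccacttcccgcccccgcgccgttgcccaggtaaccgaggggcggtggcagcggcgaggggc

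In HSCs of all 6 diet groups the counted level of the inducible HSP70 pair lay far below that of the other members. If reads that match both genes of the pair were dropped, both levels are too low. Together the 10 genes took 0.306% to 0.598% of all counts in the diet libraries. Per kilobase of exon, group means ran from 369 to 689 CPM for Hsp90ab1, the constitutive HSP90, and from 210 to 493 CPM for Hspa8, the constitutive HSP70. The stress-responsive HSP90 gene Hsp90aa1 followed at 96.6 to 187 CPM per kilobase, Hspd1 at 72.4 to 117, Hspe1 at 39.3 to 77.4, Dnajb1 at 37.9 to 45.4, Dnaja1 at 22.4 to 33.8 and Hsph1 at 6.46 to 17.9. Hspa1b reached only 0.730 to 2.84 CPM per kilobase and Hspa1a 0.0822 to 0.223. Hspa8, Hsp90ab1 and Hsp90aa1 made up 78.6% to 84.5% of the summed chaperone level in every diet library.

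Among the 6 diet groups the highest mean was that of YCR for all 10 members. The summed level was 5919 ± 337 CPM (SD, n = 4) in YCR, 4680 ± 608 in YCRRF (n = 4), 4198 ± 110 in YAL (n = 4), 3877 ± 581 in OCR (n = 4), 3175 ± 195 in OAL (n = 4) and 3078 ± 20.9 in OCRRF (n = 2). All 4 YCR libraries (5570 to 6320 CPM) lay above every other diet library, the next of which was a YCRRF library at 5287 CPM. The lowest group was OAL for Hspa8, Hsph1 and Dnaja1, OCRRF for Hsp90aa1, Hsp90ab1, Hspd1 and Hspe1, OCR for Dnajb1, and YCRRF for Hspa1a and Hspa1b. Of the neighbouring groups in each gene's order, YCR stood clear of the next group without overlap in Hsp90aa1 and Hsph1, and overlapped it in the other 8 genes.

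**Figure D1:**
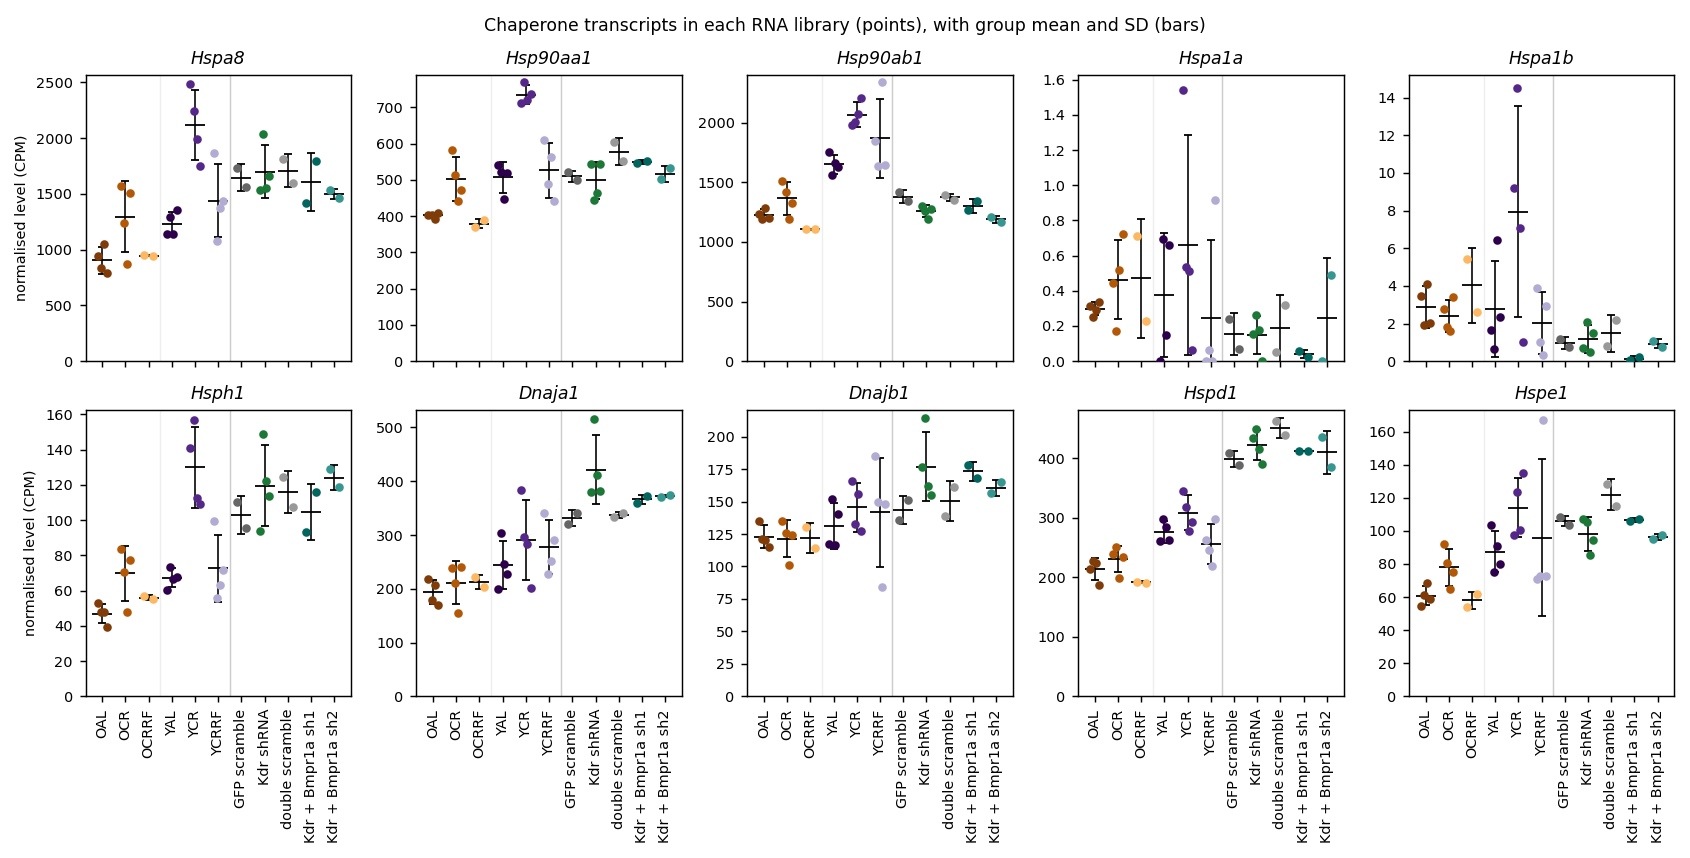
Level of each chaperone gene (CPM, y axis from 0, a separate scale for each gene) in every RNA library (points) by group, with the group mean and SD (bars). YCR is the highest diet group by mean in all 10 panels, and the 4 YCR points of Hsp90aa1 (712 to 771 CPM) lie above every other diet library.

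Lifelong CR was compared with lifelong ad libitum feeding to see which transcripts differ in old HSCs. Of the 10 members, 4 were higher in OCR past the thresholds of a differentially expressed gene (DEG): Hspa8, Hsph1, Hsp90aa1 and Hspe1. A DEG had an edgeR adjusted p under 0.05 and a fold change above 1.2. Over all 27150 genes tested, 2.54% were higher and 3.03% lower (5.57% in all). The median log2 fold change was 0.25 over the 10 members and 0.02 over all genes tested.

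Hspa8, the constitutive HSP70, stood at 940, 833, 1054 and 787 CPM in OAL and at 1569, 1238, 871 and 1508 CPM in OCR. The third OCR library lay inside the OAL range and the other 3 above it, and the log2 fold change was 0.54 ± 0.13 (SE). Hsph1, the HSP110 nucleotide exchange factor, showed the same layout. It stood at 52.7, 47.6, 48.0 and 39.4 CPM in OAL and at 83.4, 70.5, 47.8 and 77.5 CPM in OCR, a log2 fold change of 0.59 ± 0.12. Hsp90aa1 stood at 403, 404, 392 and 410 CPM in OAL and at 583, 514, 441 and 471 CPM in OCR, with a log2 fold change of 0.34 ± 0.09. It was the only member whose groups did not overlap, against 4.24% of all genes tested that were higher and 7.12% that were lower with no overlap. Hspe1, the HSP10 lid, stood at 54.7, 61.5, 68.7 and 58.8 CPM in OAL and at 91.8, 80.4, 64.7 and 75.4 CPM in OCR, a log2 fold change of 0.38 ± 0.10.

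The remaining members did not pass the thresholds. Hsp90ab1 had a log2 fold change of 0.17 ± 0.08, Dnaja1 of 0.14 ± 0.11, Hspd1 of 0.13 ± 0.09 and Dnajb1 of 0.00 ± 0.09, each with overlapping groups. Hspa1a, at 6 to 24 counts a library in OCR and 8 to 11 in OAL, and Hspa1b, at 50 to 114 and 60 to 128 counts, overlapped as well. The third OCR library had the most receptor-gene counts of its group (1313 CPM against 587 to 809 in the other 3) and the lowest level of every member but Hspa1a, and its part in the result was not tested. Without it the same 4 genes passed, with log2 fold changes of 0.68 for Hspa8, 0.73 for Hsph1, 0.39 for Hsp90aa1 and 0.45 for Hspe1. Without OCR replicate 1 only Hspa8 and Hsph1 passed, and by DESeq2 Hspa8 did not pass.

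Among partner genes that did not belong to the 10, the endoplasmic reticulum (ER) relatives moved most. The median log2 fold change was 0.16 over the HSP90 co-chaperones and -0.08 over the HSP70 co-chaperones, against 0.02 over all genes tested. Of 11 HSP90 co-chaperones, 2 were higher in OCR and none lower. Stip1, the HOP adaptor that joins HSP70 to HSP90, was at 211 ± 24.7 CPM in OCR and 162 ± 6.20 in OAL (SD, n = 4 each), which is 0.40 ± 0.09 on the log2 scale (edgeR adjusted p = 0.00295). Fkbp4, an immunophilin of steroid receptor complexes, had a log2 fold change of 0.37 ± 0.09 (edgeR adjusted p = 0.00912). None of 9 HSP70 co-chaperones, 14 subunits of the cytosolic chaperonin TRiC and of prefoldin, 10 mitochondrial chaperones and proteases or 4 HSF genes and regulators passed. Of 12 other cytosolic HSP70, HSP110 and DNAJ genes only Hspa4l, another HSP110, was higher (log2 fold change 0.32 ± 0.09, edgeR adjusted p = 0.0338). Of 5 small heat shock proteins, 2 were lower, Hspb8 (-0.77 ± 0.18, edgeR adjusted p = 0.00621) and Hspb6 (-0.46 ± 0.14, edgeR adjusted p = 0.0486).

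Of 8 ER chaperones related to the members, 6 were higher in OCR. Sdf2l1, a cofactor of the ER HSP70 system, was at 45.9 ± 15.0 CPM in OCR and 13.2 ± 3.47 in OAL (log2 fold change 1.81 ± 0.18, edgeR adjusted p = 5.80e-08). The ER HSP90 gene Hsp90b1 (0.91 ± 0.09, edgeR adjusted p = 2.07e-08), the ER HSP110 gene Hyou1 (0.90 ± 0.11, edgeR adjusted p = 1.07e-06) and the ER HSP70 gene Hspa5 (0.76 ± 0.10, edgeR adjusted p = 6.35e-06) rose with it on the log2 scale. Median log2 fold changes were 0.66 over the 8 ER genes, 0.25 over the 10 members and 0.02 over all genes. Proliferation genes moved with the same comparison: all 14 of a list of cell cycle genes were higher, with a summed level of 1157 to 1626 CPM in OCR and 618 to 685 in OAL. Immediate early genes, which respond to handling of cells, summed to 339 to 445 CPM in OCR and 469 to 637 in OAL, and 5 of 14 were lower, Jun most (-1.13 ± 0.10, edgeR adjusted p = 7.75e-09), while Btg2 was higher (0.67 ± 0.17, edgeR adjusted p = 0.0117). Markers of B and plasma cells summed to 2.57 to 228 CPM in OAL and 1.95 to 4.82 in OCR. The part of cell cycle, handling or other cells in the members' levels was not tested.

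Refeeding after lifelong CR was compared with CR itself, so it shares the OCR libraries with the comparison above. Hsp90aa1 and Hspe1 were lower in OCRRF past the DEG thresholds, where 2.71% of 32577 genes tested were lower and 0.694% higher (3.41% in all). Hsp90aa1 stood at 371 and 388 CPM in OCRRF, below all 4 OCR libraries, with a log2 fold change of -0.46 ± 0.13. Hspe1 stood at 54.3 and 61.6 CPM, also below every OCR library (-0.49 ± 0.14). The groups of Hsp90ab1 (1110 and 1104 CPM, -0.36 ± 0.12) and of Hspd1, the HSP60 ring protein (192 and 190 CPM, -0.33 ± 0.12), did not overlap either. With 4 members lower without overlap, the background was 10.8% of all genes tested.

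Hspa8 stood at 950 and 944 CPM after refeeding, above the third OCR library and below the other 3 (-0.52 ± 0.15), and Hsph1 at 56.9 and 55.0 CPM (-0.38 ± 0.15). Both DNAJ genes lay within the OCR range, Dnaja1 at 222 and 203 CPM (-0.05 ± 0.14) and Dnajb1 at 130 and 114 CPM (-0.05 ± 0.13). The median over the 10 members was -0.35, while the median over all genes tested was 0.11. With TMM factors taken only from genes at 5 CPM or more, the median over all genes was 0.24, no member passed, and Dnaja1, Dnajb1 and Hspa1a were above 0. DESeq2 gave 5 members lower, and the edgeR fit without the third OCR library gave 6 (Hspa8, Hsp90aa1, Hsp90ab1, Hsph1, Hspd1 and Hspe1). The count was 0 without OCR replicate 2 and without either OCRRF library.

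Partner genes of the cytosol were lower as well after refeeding. Of 11 HSP90 co-chaperones 4 passed, all lower: Stip1 (-0.62 ± 0.13, edgeR adjusted p = 0.00210), Fkbp4 (-0.59 ± 0.13, edgeR adjusted p = 0.00417), the p23 gene Ptges3 (-0.47 ± 0.12, edgeR adjusted p = 0.0212) and Fkbp5 (-0.42 ± 0.12, edgeR adjusted p = 0.0493). Of 9 HSP70 co-chaperones 2 passed, the exchange factor Bag1 (-0.46 ± 0.13, edgeR adjusted p = 0.0303) and the HIP gene St13 (-0.42 ± 0.12, edgeR adjusted p = 0.0423). Hspa2 (-0.55 ± 0.15, edgeR adjusted p = 0.0366), Hspa14 (-0.51 ± 0.14, edgeR adjusted p = 0.0289) and the TRiC subunit Cct8 (-0.42 ± 0.12, edgeR adjusted p = 0.0420) were lower too. The ER relatives fell in 6 of 8 cases, led by Sdf2l1 (-1.87 ± 0.22, edgeR adjusted p = 3.40e-07) and Hspa5 (-0.97 ± 0.13, edgeR adjusted p = 5.11e-06). All 14 proliferation genes were lower, with a summed level of 544 to 583 CPM in OCRRF. Of 4 megakaryocyte markers 3 were lower (207.6 to 208.2 CPM summed in OCRRF and 237 to 337 in OCR). Of 5 B and plasma cell markers 1 was higher and 4 were higher without overlap (6.77 to 12.4 CPM summed, against 1.95 to 4.82). Receptor genes stood at 1213 and 1553 CPM in OCRRF and 587 to 1313 in OCR, and the part of these in the members' levels was not tested. Over the 73 genes of the 8 chaperone lists 15 passed, 8 without OCRRF replicate 2, 4 without OCRRF replicate 1, 8 without OCR replicate 2 and 27 without the third OCR library.

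Refed old HSCs were set against old HSCs that were never restricted. No member passed the DEG thresholds, where 1.66% of 31816 genes were higher and 2.48% lower (4.14% in all). Hsph1 (55.0 and 56.9 CPM, 0.24 ± 0.10) lay above every OAL library, and Hsp90aa1 (-0.10 ± 0.06) and Hsp90ab1 (-0.16 ± 0.06) below every one. Without overlap, 22.8% of all genes tested were higher and 15.8% lower. When TMM factors came from genes at 5 CPM or more, Hsph1 passed as higher (0.39) and Hsp90aa1 changed sign to 0.05. Of the chaperone lists 6 genes passed, all lower: the heat shock factor Hsf1 (-0.35 ± 0.09, edgeR adjusted p = 0.0357), the ubiquitin ligase Stub1 (-0.33 ± 0.07, edgeR adjusted p = 0.0231), Bag1, Sgta, Dnajc5 and Dnajc3. None of the 6 passed under those TMM factors or when any single library was left out.

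Short-term CR in young mice gave the largest log2 fold changes of Hspa8, Hsp90aa1 and Hsph1 among the 7 diet and age comparisons. Hspa8, Hsp90aa1, Hsp90ab1 and Hsph1 were higher in YCR past the DEG thresholds and without overlap between the groups. Only 0.0642% of 18680 genes tested, which is 12 genes, were higher past the thresholds (0.257% in either direction), and 2.49% were higher and 3.83% lower without overlap. Of the 10 members 10 had a log2 fold change above 0, with a median of 0.48, against 0.01 over all genes tested.

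Hspa8 stood at 1137, 1292, 1138 and 1356 CPM in YAL and at 2486, 2242, 1993 and 1755 CPM in YCR, a log2 fold change of 0.80 ± 0.10. Hsph1 stood at 60.5, 73.7, 66.7 and 67.8 CPM in YAL and at 141, 157, 113 and 109 CPM in YCR, the largest fold of those that passed (0.97 ± 0.13). Every YCR library lay above every YAL library in both genes. Hsp90aa1 went from 541, 522, 446 and 518 CPM in YAL to 712, 771, 720 and 738 CPM in YCR (0.56 ± 0.07). Hsp90ab1 went from 1753, 1564, 1658 and 1628 CPM to 1978, 2004, 2076 and 2210 CPM (0.35 ± 0.06), and the 2 groups of each HSP90 gene were again apart.

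The J-domain genes and the mitochondrial pair did not pass. Dnaja1 stood at 199 to 303 CPM in YAL and 202 to 384 in YCR (0.27 ± 0.17), Dnajb1 at 116 to 152 and 127 to 166 CPM (0.17 ± 0.12), Hspd1 at 260 to 298 and 277 to 345 CPM (0.18 ± 0.08), and Hspe1 at 75.1 to 103 and 97.6 to 135 CPM (0.41 ± 0.14). Inducible Hspa1b had the largest estimate and a larger SE than any member but Hspa1a. It stood at 1.66, 0.630, 6.42 and 2.36 CPM in YAL and at 9.22, 14.5, 7.06 and 1.01 CPM in YCR, so that 3 YCR libraries lay above and 1 within the YAL range (1.53 ± 0.77).

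Markers of B and plasma cells summed to 21.7 to 77.8 CPM in YAL, to 20.4 CPM in the first YCR library and to 788, 1284 and 511 CPM in the other 3. The first YCR library, with the lowest marker sum of all 8, had the highest YCR level of Hspa8 (2486 CPM) and the lowest of Hsp90aa1 (712 CPM) and Hsp90ab1 (1978 CPM), while Hsph1 was highest in the second (157 CPM), whose marker sum was 788 CPM. Neutrophil and monocyte markers summed to 21.6 to 524 CPM in YAL and 22.5 to 323 in YCR, and proliferation genes to 994 to 1160 and 1304 to 1450 CPM, and the part of these in the members' levels was not tested. Without YCR replicate 2 no member passed, without YAL replicate 2, 3 or 4 the counts were 1, 2 and 1, and the log2 fold changes of the 4 genes stayed between 0.31 and 1.04 when any one library was left out. In the same comparison only 1 of the 73 genes of the chaperone lists passed, the ER cofactor Sdf2l1 (1.14 ± 0.20, edgeR adjusted p = 0.0447), and it did not pass without YAL replicate 2, 3 or 4 or without any one YCR library. The median over the HSP90 co-chaperones was 0.28 on the log2 scale, and 9 of 11 were above 0. Stip1, named for its likeness to the members over the same libraries, stood at 289 ± 51.0 CPM in YCR and 206 ± 10.1 in YAL (SD, n = 4 each). Its log2 fold change was 0.51 ± 0.11, it did not pass, and no p-value is given after that choice.

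After 4 weeks of refeeding, which was compared with the same YCR libraries, no member passed the thresholds, as only 2 of 19535 genes did (0.0102%). All 10 estimates were below 0, with a median of -0.39 against 0.02 over all genes. Hsp90aa1 at 611, 490, 564 and 442 CPM (-0.50 ± 0.11) and Hsph1 at 99.2, 56.1, 63.3 and 71.8 CPM (-0.86 ± 0.19) lay below every YCR library, where 2.53% of genes tested were lower without overlap. Hspa8 at 1869, 1078, 1372 and 1440 CPM overlapped the YCR range by its first library (-0.57 ± 0.16). Both Hsp90aa1 and Hsph1 kept estimates below 0 whichever library was left out, at -0.57 to -0.43 and -1.04 to -0.75. YCRRF replicate 3, which enters this and the next comparison, lay far from its group over all genes (given at the end). DESeq2 called Hsp90aa1 and Hsph1 lower, and edgeR with no filter on low counts called Hspa8 and Hsph1. Of 14 proliferation genes none passed, but all 14 were below 0 and 8 were lower without overlap (549 to 1064 CPM summed in YCRRF and 1304 to 1450 in YCR). B and plasma cell markers summed to 0.918 to 19.0 CPM in YCRRF and 20.4 to 1284 in YCR, and neutrophil and monocyte markers to 219 to 1410 and 22.5 to 323 CPM. The part of these in the members' levels was not tested.

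Set against YAL, refed YCRRF libraries overlapped the control in every member, where 1.28% of genes were higher and 1.94% lower without overlap. No member of the 9 tested passed, nor did any of 19334 genes by edgeR (714 had an unadjusted p under 0.05, and DESeq2 called 15). Estimates ran from -0.44 ± 0.87 for Hspa1b to 0.23 ± 0.15 for Hspa8. Hspa1a, at 0 to 10 counts in YCRRF, was removed by the filter on low counts.

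**Figure D2:**
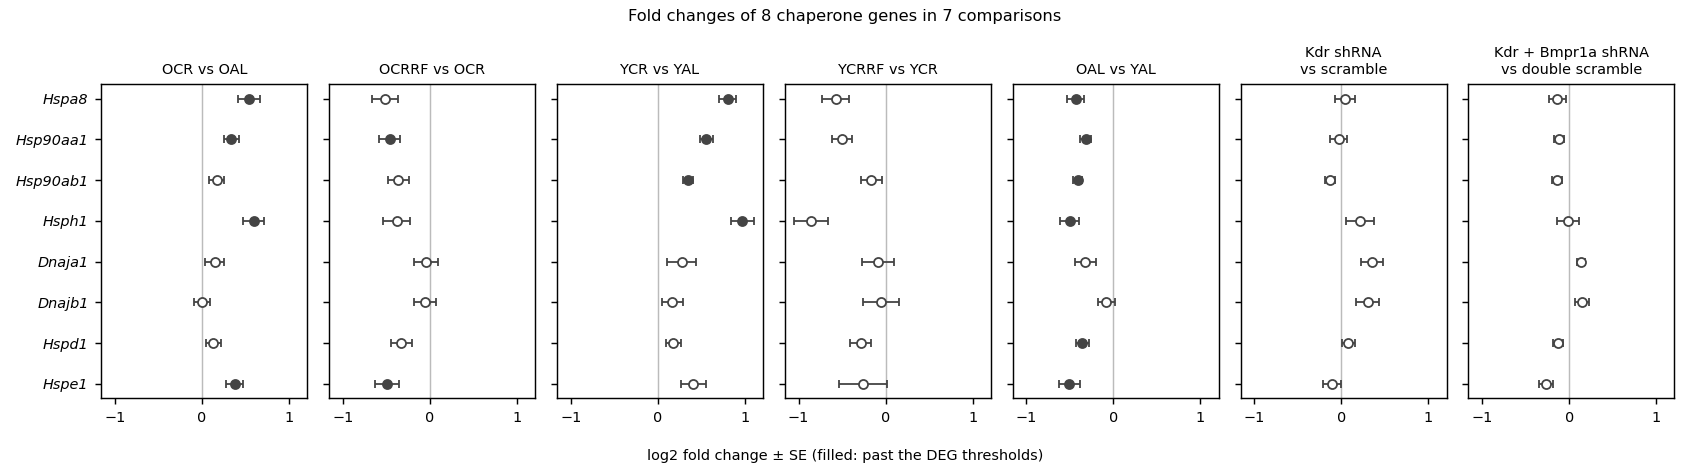
Log2 fold change with its SE (x axis) of 8 chaperone genes (y axis) in 7 comparisons, with filled points past the DEG thresholds; Hspa1a and Hspa1b are left out for their few counts. Filled points lie to the right of 0 in OCR versus OAL (4 genes) and YCR versus YAL (4 genes) and to the left in OCRRF versus OCR (2 genes) and OAL versus YAL (6 genes), and there is none for either knockdown.

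Old and young ad libitum mice were compared for the effect of age. Of the members 6 were lower in OAL past the thresholds and without overlap: Hspa8 (-0.43 ± 0.10), Hsp90ab1 (-0.41 ± 0.06), Hsp90aa1 (-0.32 ± 0.07), Hsph1 (-0.51 ± 0.11), Hspd1 (-0.36 ± 0.08) and Hspe1 (-0.51 ± 0.12). Of 23525 genes tested, 7.93% were lower and 6.89% higher (14.8% in all), and 12.3% were lower without overlap. Hsp90ab1 went from 1564 to 1753 CPM in YAL to 1194 to 1288 in OAL, and Hspd1 from 260 to 298 CPM to 187 to 228. Dnaja1 (-0.32 ± 0.12) and Dnajb1 (-0.08 ± 0.10) overlapped between the ages.

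Partner genes were lower in OAL across several lists. Of 11 HSP90 co-chaperones 7 were lower, among them Fkbp4 (-0.55 ± 0.08, edgeR adjusted p = 0.00182) and the kinase-client adaptor Cdc37 (-0.44 ± 0.07, edgeR adjusted p = 0.00331). Of 14 TRiC and prefoldin subunits 7 were lower, among them Cct5 (-0.40 ± 0.06, edgeR adjusted p = 0.00237) and Pfdn6 (-0.55 ± 0.10, edgeR adjusted p = 0.00770). Hsf1 was at 88.3 ± 7.46 CPM in OAL and 123 ± 9.95 in YAL (-0.47 ± 0.09, edgeR adjusted p = 0.00680). Lower too were 4 of 10 mitochondrial genes, led by the protease Lonp1 (-0.47 ± 0.10, edgeR adjusted p = 0.0120), 3 of 9 HSP70 co-chaperones, 3 of 12 other cytosolic HSP70 and DNAJ genes, and Hspa5 of the ER (-0.46 ± 0.09, edgeR adjusted p = 0.0101). No gene of the 73 was higher.

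The age comparison is bound to a difference between the libraries. OAL libraries had 42071 to 43972 genes with a count against 25936 to 28713 in YAL, and receptor genes at 553 to 788 CPM against 113 to 229. Other lists moved with the members in the age comparison: lower in OAL were 9 of 14 proliferation genes (618 to 685 CPM summed, against 994 to 1160), 3 of 6 erythroid markers (37.6 to 189 CPM against 60.4 to 141), 3 of 5 B and plasma cell markers with 1 higher (2.57 to 228 CPM against 21.7 to 77.8) and 2 of 7 neutrophil and monocyte markers (15.9 to 84.9 CPM against 21.6 to 524). Their part in the members' levels was not tested. With TMM factors from genes at 5 CPM or more, the median over all genes was 0.16 in place of 0.05, and only Hsp90ab1 (-0.30) and Hsph1 (-0.39) passed. The estimates of the 6 genes stayed below 0 under every scaling, while Dnajb1 changed sign to 0.03. Of the 73 list genes 26 passed, all lower, and under those TMM factors 8 were lower and 1 higher.

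The response to lifelong CR in old HSCs was tested against the response to short-term CR in young HSCs, and no member passed the thresholds. Of 28328 genes 12 (0.0424%) passed, 0.0177% higher and 0.0247% lower. Age and length of CR cannot be told apart in this test, and the old libraries had more genes with a count. All 10 estimates of the old minus the young response were below 0, with a median of -0.17 against -0.03 over all genes tested. The estimates were -0.26 ± 0.20 for Hspa8, -0.37 ± 0.21 for Hsph1, -0.21 ± 0.11 for Hsp90aa1 and -0.17 ± 0.09 for Hsp90ab1, and the YCR and YAL libraries enter them as they do the comparison above. None of the chaperone list genes passed. Of the proliferation genes Ccnb1 (1.45 ± 0.25, edgeR adjusted p = 0.0431), Cdk1 (1.41 ± 0.23, edgeR adjusted p = 0.0295) and Top2a (1.27 ± 0.16, edgeR adjusted p = 0.00357) had the larger response in old mice.

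In the transplanted cells the targeted genes were examined first. Kdr, a receptor tyrosine kinase for VEGF, stood at 1.93, 2.21, 3.28 and 2.03 CPM in the 4 Kdr knockdown libraries and at 6.04 and 6.07 in the GFP scramble. In the double knockdown Kdr stood at 1.24 and 0.555 CPM (shRNA1) and 1.60 and 1.35 CPM (shRNA2) against 3.97 and 4.62 in the double scramble. Bmpr1a, a receptor for bone morphogenetic proteins, stood at 4.44 and 0.656 CPM with shRNA1 and at 2.22 and 0.595 CPM with shRNA2, against 5.21 and 4.43 in the double scramble. The first shRNA1 library therefore overlapped its scramble for Bmpr1a.

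Neither knockdown moved a chaperone gene past the DEG thresholds. The Kdr knockdown had 3 genes past them among 20098 (0.0149%), and the double knockdown 1 among 20072 (0.00498%), so that few genes of any kind passed. DESeq2 called 302 and 332 genes, none of them a member. The summed chaperone level was 4697 ± 337 CPM with the Kdr shRNA (n = 4) and 4618 ± 192 in its scramble (n = 2). It was 4625 ± 347 CPM with Bmpr1a shRNA1, 4370 ± 85.2 with shRNA2 and 4838 ± 233 in the double scramble (n = 2 each).

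The J-domain genes and the constitutive HSP90 were the members whose groups did not overlap after Kdr knockdown. Dnaja1, a J-domain partner of Hspa8, stood at 379, 515, 411 and 382 CPM with the Kdr shRNA and at 321 and 341 in the scramble (0.35 ± 0.12). Dnajb1 stood at 177, 214, 162 and 155 CPM and at 136 and 151 (0.30 ± 0.13). Hsp90ab1 stood at 1306, 1262, 1194 and 1278 CPM and at 1419 and 1342 (-0.13 ± 0.06). Without overlap, 10.6% of all genes were higher and 11.3% lower, so that 2 higher and 1 lower of 9 tested members is near the background.

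In the double knockdown Dnaja1 (360, 373, 371 and 374 CPM against 333 and 342, 0.13 ± 0.05) was higher without overlap. Hsp90ab1 (-0.14 ± 0.06), Hspd1 (-0.13 ± 0.06) and Hspe1 (106, 107, 94.9 and 97.3 CPM against 129 and 115, -0.26 ± 0.08) were lower without overlap. The background was 10.5% higher and 10.8% lower. Hspd1 was higher in the transplanted libraries, at 384 to 462 CPM, than in any diet library, where it reached 345 CPM. TMM factors were computed separately within the diet and within the transplanted libraries, so these levels are not on one scale. The transplanted libraries also differ in culture, infection, transplantation, sort gate, RNA extraction and sequencer. Their range of neutrophil and monocyte marker sums, given above, differs as well. The difference in Hspd1 cannot be told apart from those.

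The members did not vary as 1 block within groups. Over the 22 diet libraries, after the mean of each group was subtracted, Pearson's r over the 45 pairs of members ran from -0.78 to 0.91, with a median of 0.38, 31 pairs above 0 and 13 above 0.5. These libraries share their normalisation and differ in depth and background, so the values are a description. Hspa8 and its exchange factor Hsph1 were the closest pair (0.91), and both went with Dnaja1 (0.84 and 0.83), so that these 3 genes of the HSP70 cycle varied together across libraries. Without the third OCR library Hspa8 and Hsph1 had an r of 0.87. Hsp90ab1 went with Hspe1 (0.88, and 0.78 without YCRRF replicate 3, where Hspe1 was far above the rest of its group), while Hspe1 ran against Dnajb1 (-0.78, and -0.56 without that library). Hspd1 and Hspe1, which share the promoter region shown above, had an r of -0.32, and of -0.04 without YCRRF replicate 3.

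**Figure D3:**
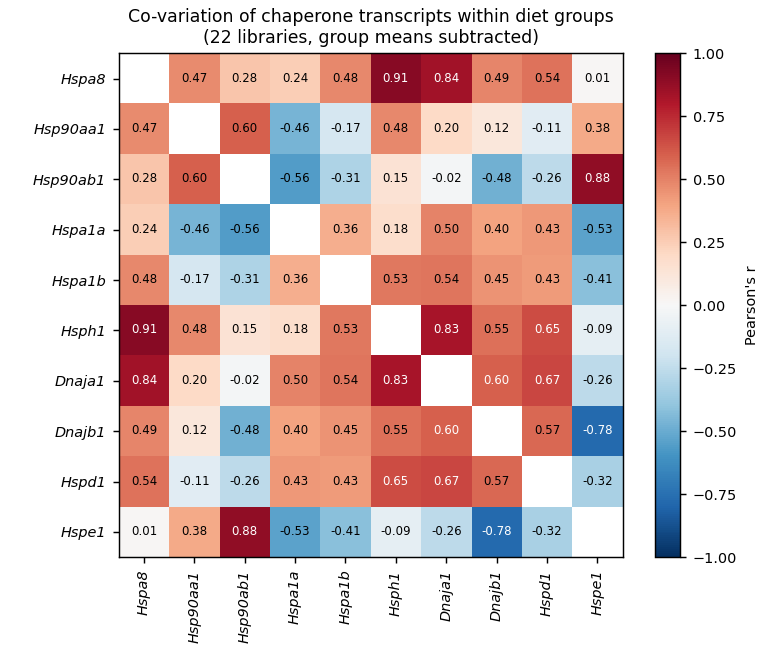
Pearson's r between each pair of chaperone genes over 22 diet libraries after subtraction of the group means (colour scale from -1 to 1, values printed). The reddest cells join Hspa8, Hsph1 and Dnaja1 (0.83 to 0.91) and Hsp90ab1 with Hspe1 (0.88), and the bluest joins Dnajb1 with Hspe1 (-0.78).

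Of 12319 other genes at a mean of 5 CPM or more, those most like the members' mean profile over the 22 libraries, each age centred on its own mean, were Gm15459 (r = 0.93), Stip1 (0.88), Dynll1 (0.87), Cacybp (0.87) and St13 (0.86). Gm15459 is annotated as a processed pseudogene. Of its 25-base words, 93.5% occur in Hspa8 transcripts, so its counts (4220 over the diet libraries, 0.511% of those of Hspa8) and those of Hspa8 can be exchanged by a counting that splits or moves reads. Stip1 and St13 are HSP70 co-chaperones by function, Cacybp binds a ubiquitin ligase component and Dynll1 is a dynein light chain. Dynll1 stood at 172 ± 42.7 CPM in YCR and 87.9 ± 15.2 in YAL, a log2 fold change of 0.99 ± 0.18. It stood at 98.5 ± 27.6 CPM in OCR and 66.5 ± 13.3 in OAL (0.59 ± 0.15). The profile keeps the differences between diets and the gene was picked to follow it, so these fold changes are given with no p-value.

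Counts of near-identical copies limit 2 members in particular. Hspa1a and Hspa1b share 65.5% and 69.6% of their 25-base words with each other, so the split of reads between them is uncertain, and so are both levels. Pseudogenes that share at least 20% of their words with Hspa8 (9), Hsp90aa1 (4), Dnaja1 (3), Hspd1 (3) or Hspe1 (3) held 0.265% to 0.792% as many counts as the member itself.

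Chromatin accessibility, a readout that played no part in choosing the genes, was compared between OCRRF (2 libraries) and OCR (4 libraries) HSCs by ATAC-seq, in which a transposase cuts open chromatin. All 10 start sites lay in a peak, and the 9 distinct peaks (Hspd1 and Hspe1 share one) were at the 86.7th to 99.7th percentile of all peaks in read level. The peak over Hspa8 (chr9:40800391-40801560) held 104, 112, 117 and 102 CPM in OCR and 115 and 107 in OCRRF, the largest of the members, while Hspa1a (chr17:34971723-34972795) held 15.2, 14.3, 14.0 and 14.5 CPM and 15.9 and 13.3. None of the 9 peaks passed the thresholds of a differentially accessible region (adjusted p under 0.05, fold change above 1.5 and mean log2 CPM above 1.5), which 0.221% of 123372 peaks tested did (0.13% higher and 0.0908% lower). Log2 fold changes ran from -0.11 ± 0.09 at Hsp90aa1 to 0.25 ± 0.09 at Hspa1b, with a median of 0.02. The methods name uniquely mapped reads, so reads that match both Hspa1a and Hspa1b may have been dropped. The effect on their peaks was not tested. The Hspa1b peak (chr17:34958813-34960119) held 25.4, 28.1, 25.3 and 23.9 CPM in OCR and 28.8 and 32.4 in OCRRF (edgeR adjusted p = 0.254, the lowest of the 9). At Hsp90aa1 and Hspe1, the genes lower in RNA after refeeding, the peaks had log2 fold changes of -0.11 ± 0.09 (edgeR adjusted p = 0.702) and 0.02 ± 0.06 (edgeR adjusted p = 0.947).

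Histone marks were read in OCR HSCs, 2 libraries each, while those of OAL HSCs were not used here. The values are given as signal that the authors scaled to a common number of reads. H3K4me3 marks active promoters and H3K27me3 marks promoters silenced by Polycomb. The inducible pair stood apart from the other 8 members in both. Hspa1a had an H3K4me3 signal of 8.08 and 8.10 and Hspa1b of 9.14 and 8.21, near the median of 25127 genes (10.8 and 10.2). The other 8 members had means of 36.9 (Hspe1) to 57.5 (Hsp90ab1), at the 88.3rd to 99.9th percentile. H3K27me3 was 2.76 and 2.99 at Hspa1a and 2.12 and 2.59 at Hspa1b, at or above the 88.5th percentile, against means of 0.0947 (Hsp90aa1) to 0.385 (Hsph1) at the other 8 and gene medians of 0.341 and 0.344. Among related genes, H3K27me3 above that of the pair was found at Hspa2 (5.31, with H3K4me3 at 16.8) and Hspb1 (4.17, with H3K4me3 at 9.97). The methods name uniquely mapped reads, so with promoters this alike reads that match both copies may have been dropped. Both signals of the pair may then be too low, and the effect was not tested.

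**Figure D4:**
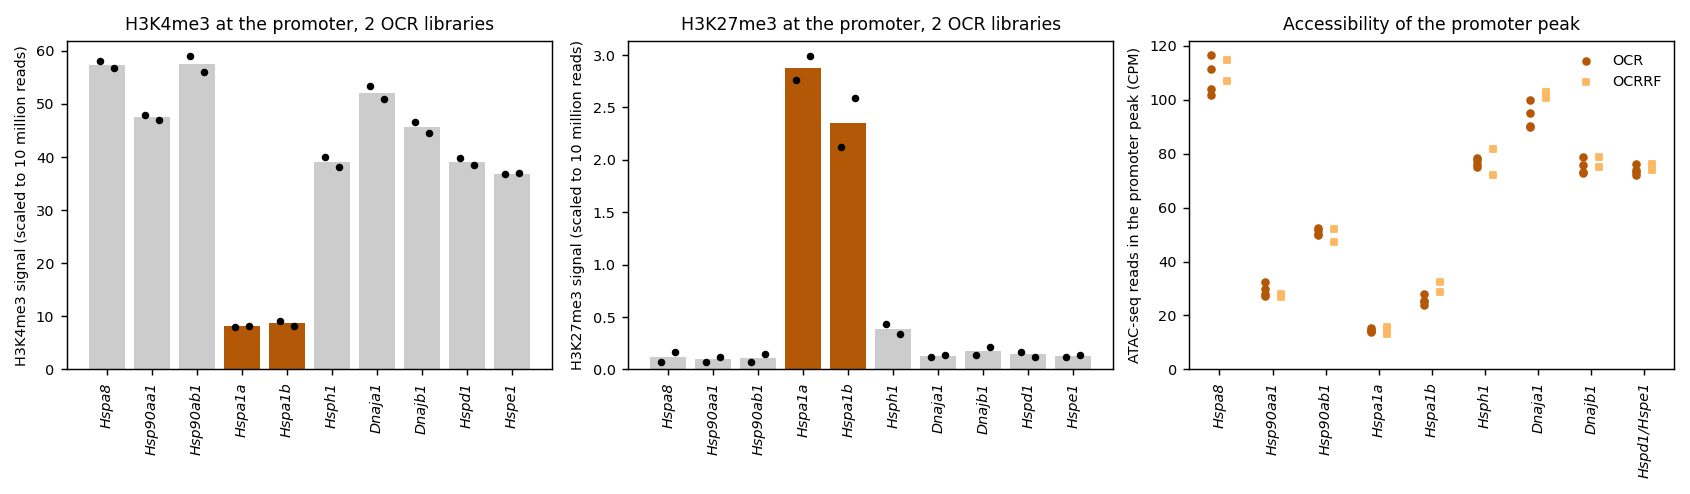
Left and middle, H3K4me3 and H3K27me3 signal (y axes from 0, scaled to a common number of reads) at the promoter of each gene in OCR HSCs, with the mean as bar and 2 libraries as points; right, ATAC-seq reads in the promoter peak (CPM) in 4 OCR and 2 OCRRF libraries. Hspa1a and Hspa1b (dark bars) have the lowest H3K4me3 (means of 8.09 and 8.67) and the highest H3K27me3 (2.87 and 2.35), and OCR and OCRRF points lie close together in each peak.

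PU.1, an ETS family transcription factor of blood cells, was mapped by ChIP-seq in OAL, OCR and OCRRF HSCs with 2 libraries a group, and peaks were called by the authors in each library. A peak lay within 1 kb of a start site of Hspa8 in 5 of 6 libraries, of Hsph1 in 3, of Dnaja1 in 3 and of Hspa1b in 1. Hspa8 had a fold enrichment of 6.63 and 5.75 in OAL, 8.29 and 6.89 in OCR, and 8.57 in the second OCRRF library, with none in the first. The peak of the first OAL library lay at chr9:40800612-40800912, upstream of the gene. Hsph1 had a peak in both OAL libraries (7.45 and 6.49) and in the first OCR library (6.25). Dnaja1 had one in the first OAL library (5.25) and in both OCR libraries (5.08 and 7.54). Hspa1b had one in the second OCR library alone (6.08), at chr17:34959389-34959614, directly upstream of the stretch printed above. Reads that match both Hspa1a and Hspa1b may have been dropped here too, which limits peak calls at both genes.

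Counted by library, 3 and 2 members had a peak in OAL, 3 and 3 in OCR and 0 and 1 in OCRRF. Of all 24328 genes, 2.91% and 2.64% had one in OAL, 5.21% and 3.57% in OCR and 2.46% and 2.0% in OCRRF. Of the 2478 genes highest in H3K4me3, which hold 7 of the members, 8.51% and 7.38%, 14.1% and 9.52%, and 7.14% and 5.65% had one. The libraries of a group differed in antibody, the number of peaks per library ran from 2262 to 5464, and with 2 libraries a group no test was made. GAGGAAGT, a core that PU.1 is known to favour, stood on either strand in none of the 7 members' windows and in 3.20% of all promoters. The shorter ETS core GGAAGT stood in those of Dnaja1, Hspa1a, Hspa1b and Hsph1 and in 23.8% of all promoters.

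**Figure D5:**
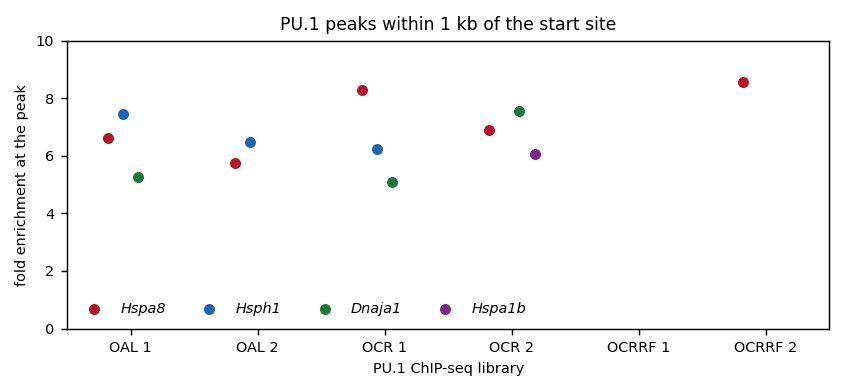
Fold enrichment (y axis from 0) of each PU.1 peak within 1 kb of a chaperone start site in the 6 ChIP-seq libraries (x axis); a gene without a point had no peak in that library. Hspa8 has a point in 5 of 6 libraries, between 5.75 and 8.57, and the first OCRRF library has none.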

How the data were processed

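RNA was measured in 34 libraries. Per the labels and methods, the authors trimmed reads with trim galore and cutadapt, aligned them to mm10 with STAR and deposited featureCounts counts per GENCODE M22 gene; handling of strand and of multi-mapping reads is not given in the sources used here. For ATAC-seq the authors deposited read counts in 131918 consensus peaks; whether cut sites were shifted is not given. They deposited histone signal per RefSeq transcript, in windows of 750 bases (H3K4me3) and 2000 bases (H3K27me3) at the start site, of which the highest transcript was used. For PU.1 they deposited MACS2 peaks called per library with a score, a fold enrichment ratio and −log10 p and q. OAL libraries of ATAC-seq and histone marks were not used here. The PU.1 antibody of replicate 1 is in its label, and that of replicate 2 was read from a file name.

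Counts were fitted with edgeR 4.0.16 (filterByExpr, TMM, quasi-likelihood test), each comparison on its own groups, with Benjamini-Hochberg adjustment over all genes; DEGs had an adjusted p under 0.05 and a fold change above 1.2. DESeq2 1.42.0 was an alternative. The fits were tested on simulated counts. Exon lengths and 25-base words came from GENCODE M21. Genes named were the 10 members, from each list up to 4 genes past the thresholds with the largest fold change per comparison, and the 5 genes of most similar pattern; Stip1 in YCR versus YAL comes under the last of these, and the marks of Hspa2 and Hspb1 were singled out after their values were seen. A further HSC marker of the list is not reported here. Members and lists were chosen with earlier results of these data known. Replicate libraries all differed by more than counting error, and YCRRF replicate 3 differed most from its group. Depths of 11102898 to 44780217 counts leave Hspa1a at 0 to 45 counts, so it is judged least precisely.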

Additional observations from a re-analysis of the deposited data

Results flagged for a closer look

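In 69 groups of 4 libraries searched, 2 held a library far from the other 3. Chance gives about 1 in 20 such groups, so 2 of 69 is no more than chance would give. Hspe1 stood at 167 CPM in YCRRF replicate 3, against 71.0 to 72.9 CPM in the other 3 libraries. In the same library Hsp90ab1 was the highest of its group (2342 CPM) and Dnajb1 the lowest (84.3 CPM). Over all genes the whole library lay far from its group. Its pairs had a chi-square per degree of freedom of 153 to 336, against 28.4 to 56.4 in other YCRRF pairs. Its TMM factor (0.844) was the lowest of all libraries. Hspa1a stood at 0.913 CPM (10 counts) in YCRRF replicate 4, the library of least depth, against 0 to 0.0624 CPM in the other 3. The interaction test over all genes set the response to lifelong CR in old HSCs against that to short-term CR in young HSCs. The response differed for 3 proliferation genes set beside the chaperones: Top2a (log2 difference 1.27, edgeR adjusted p = 0.00357), Cdk1 (1.41, edgeR adjusted p = 0.0295) and Ccnb1 (1.45, edgeR adjusted p = 0.0431). Age and length of CR cannot be told apart here.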

How the results depend on the processing

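Of the 10 members, 4 passed in OCR versus OAL, 2 in OCRRF versus OCR, 0 in OCRRF versus OAL, 4 in YCR versus YAL, 0 in YCRRF versus YCR and 6 in OAL versus YAL by edgeR. When single libraries were left out these counts ranged from 2 to 4 in OCR versus OAL, 0 to 6 in OCRRF versus OCR and 0 to 4 in YCR versus YAL. Other settings moved them to 5 (DESeq2), 0 (TMM factors from genes at 5 CPM or more) and 6 (replicate block) in OCRRF versus OCR, to 1 (those TMM factors) in OCRRF versus OAL, to 0 (replicate block) in YCR versus YAL, to 2 by both DESeq2 and no filter on low counts in YCRRF versus YCR, and to 2 (those TMM factors) in OAL versus YAL. In both knockdowns, YCRRF versus YAL and the old minus young response the count stayed at 0 under every setting.

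Of the 73 list genes, 15 passed in OCRRF versus OCR, with 26 by DESeq2, 9 under those TMM factors, 37 with the replicate block and 4 to 27 when single libraries were left out. In OCRRF versus OAL 6 passed, with 25 by DESeq2, 24 with its size factors, 0 under those TMM factors, 14 with no filter, 3 with at least 10 counts in every library, 10 with the replicate block and 0 to 0 when single libraries were left out. In YCR versus YAL 1 passed, with 10 by DESeq2, 4 with no filter, 5 with at least 10 counts, 0 with the replicate block and 0 to 2 when single libraries were left out. In YCRRF versus YCR 0 passed, with 2 by DESeq2 and 1 with no filter. In OAL versus YAL 26 passed, with 9 under those TMM factors, 12 with at least 10 counts, 15 with the replicate block and 15 to 33 when single libraries were left out. The cause of these moves was not tested.

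Replicate numbers did not pair libraries: same-number correlations ran from -0.29 to 0.19 for RNA and from -0.024 to -0.019 for ATAC-seq, so the replicate block is given here alone. Those TMM factors turned the split of all genes in OAL versus YAL from 1620 higher and 1866 lower to 1870 and 784, and in OCRRF versus OAL from 528 and 788 to 754 and 54. Over all genes the count ran from 916 to 3437 in OCRRF versus OCR (1110 as reported), 808 to 3835 in OCRRF versus OAL (1316), 7 to 452 in YCR versus YAL (48) and 1651 to 6671 in OAL versus YAL (3486). When single libraries were left out these counts ran from 352 to 2755, 38 to 385, 6 to 28 and 1475 to 5358. With few genes past the thresholds, the count ran from 0 to 275 in YCRRF versus YCR (2), 0 to 40 in YCRRF versus YAL (0), 2 to 189 in the old minus young response (12), 0 to 302 in the Kdr knockdown (3) and 0 to 332 in the double knockdown (1) over all settings. Of the members' fold changes under all settings, 1397 moved by less than the spread between replicates and 64 by more, and no called fold change turned its sign. Over all ATAC-seq peaks, 161 higher and 112 lower became 475 and 289 with the replicate block, 74 and 24 without OCRRF replicate 1, 74 and 45 without OCRRF replicate 2, 66 and 33 without OCR replicate 1 and 98 and 41 without OCR replicate 2. The members' own counts for ATAC-seq and PU.1, the histone medians and the median co-variation did not move past their limits. Few counts limit Hspa1a and Hspa1b.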
